A study of Mus musculus with 9 samples.

Results

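The genes described here encode the PI3K, AKT, mTOR and AMPK kinases of mouse testis, with their regulators and a few direct targets. They were listed by name for their role in these pathways, with no measured value in the rule, and all 44 names on the list were found among the 38674 genes of the expression table. Testis RNA came from 9 male C57BL/6 mice, 3 of each genotype of Pfn3, a testis-specific profilin that binds actin. WT mice carried no Pfn3 deletion, Het mice carried 1 deleted allele and KO mice carried 2. The deletions were made with CRISPR/Cas9 in zygotes and were present in every cell of the animal. The sources used here do not say which of the established deletion lines gave the RNA. The study describes the males of its experiments as sexually mature and gives an age range in months, but not the age of each animal. The RNA was taken from the whole testis after removal of the tunica albuginea and sequenced by QuantSeq, which reads the 3′ end of polyadenylated transcripts. Because each transcript gives about 1 such read whatever its length, values were not divided by gene length. In such bulk tissue, fewer cells of a type and less RNA per cell cannot be told apart.

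AKT is a kinase switched on by growth factors through PI3K and PDK1, and it relieves the block that the TSC complex places on the small GTPase RHEB. RHEB then activates mTORC1, the kinase complex that drives protein synthesis and holds back autophagy. AMPK senses a falling energy charge, is switched on by the kinases LKB1 and CaMKK2, and opposes mTORC1. Both pathways set the rate of autophagy, which contributes to the building of the acrosome in spermatids, and the study followed mTOR and AMPK at the protein level for this reason. Protein amount and phosphorylation, through which most of these kinases are controlled, are not visible in RNA.

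The promoters of the 2 kinases that activate AMPK are shown because both genes had an unadjusted p under 0.05 between KO and WT animals, in opposite directions. Each window is RefSeq sequence of GRCm38.p6, 300 bases long, from 250 bases before the transcript start to 50 bases after it, printed 5′ to 3′ on the strand of the gene. Capitals mark the FOXO core GTAAACA and the CCAAT box, each searched on both strands. Camkk2 lies at chr5:122779361-122779660 on the minus strand, and Stk11, which encodes LKB1, at chr10:80115545-80115844 on the plus strand.
Camkk2: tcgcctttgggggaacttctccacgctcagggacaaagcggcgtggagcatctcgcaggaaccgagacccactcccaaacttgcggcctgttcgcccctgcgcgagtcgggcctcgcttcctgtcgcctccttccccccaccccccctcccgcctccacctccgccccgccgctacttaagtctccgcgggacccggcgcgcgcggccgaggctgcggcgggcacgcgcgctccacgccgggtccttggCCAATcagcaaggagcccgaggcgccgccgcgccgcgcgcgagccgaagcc
Stk11: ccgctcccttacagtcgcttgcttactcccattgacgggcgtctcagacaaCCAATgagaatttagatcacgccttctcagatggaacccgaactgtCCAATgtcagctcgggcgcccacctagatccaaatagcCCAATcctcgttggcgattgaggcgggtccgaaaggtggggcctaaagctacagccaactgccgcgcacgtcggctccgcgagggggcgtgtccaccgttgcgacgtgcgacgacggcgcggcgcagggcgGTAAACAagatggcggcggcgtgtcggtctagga
The Camkk2 window was 73.3% G and C and held 1 CCAAT box, and the Stk11 window was 61.3% G and C and held 3 CCAAT boxes and 1 FOXO core. Promoters were at hand for 39 of the 44 genes, with 53 windows in all. GTAAACA occurred in 5 of the 53 windows (9.43%), those of Akt1, Mapkap1, Sesn1 and Stk11, against 3.65% of all 32851 promoters. CCAAT occurred in 20 of the 53 (37.7%) against 37.4% of all promoters. The cAMP response element TGACGTCA occurred in 0 of the 53 against 1.79%, and the median G and C content of the windows was 64% against 52.7%. These are matches of letters and show no binding.

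Between 3375546 and 4287335 reads were counted on genes in each animal, and 3 reads, taken as the limit of detection, stood for 2.58 to 3.71 on the normalized scale. The limit takes in counting error alone. The 44 genes together took 4202 to 5852 reads per animal, or 0.124% to 0.162% of the total. Means over the 9 animals were at least 100 normalized counts for 16 genes, from 10 to under 100 for 26 and under 10 for 2. Animal WT1 stood apart from the rest: it was the lowest of the 9 in 28.6% and the highest in 25.5% of 14865 genes, and for the pathway genes it was the lowest in 9 and the highest in 11 of 42. KO2 and Het1 did so less, with 15.3% to 16.8% of all genes at each end against 4.71% to 8.78% in the other animals, and KO2 was the highest animal for 12 of the 42. Ties, such as WT1 and Het1 at 0 for Mlst8, were counted for the first animal in the order WT, Het, KO. The counts of WT1 as the lowest animal are thus upper bounds. Pfn3 itself read 592, 383 and 373 normalized counts in WT, 136, 339 and 326 in Het and 74.7, 215 and 279 in KO animals. Its 3′ end lies downstream of the deletions and overlaps another gene on the opposite strand, so this value is no check of the genotype. Trim27, which the study places upstream of AKT, read 47.0, 25.1 and 30.9 in WT, 64.2, 1014 and 102 in Het and 825, 764 and 879 in KO animals.

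KO and WT animals were compared to ask whether the loss of Pfn3 altered the expression of these kinases. Of the 44 genes, 42 were tested, and limma called 0 of them at an adjusted p under 0.05 and a log2 fold change over 1.5, against 5 of 14223 genes overall (0.0352%). The edgeR and DESeq2 tests on the recovered reads also called 0. At an unadjusted p under 0.05, 3 of the 42 were higher in KO (7.14%), against 3.04% of all genes, and 2 were lower (4.76%), against 5.03%. The higher ones were Camkk2, Rictor and Rps6kb1, and the lower ones were Pdpk1 and Stk11. When each animal was left out in turn, Rps6kb1 and Pdpk1 stayed under 0.05, while Stk11 did not without WT1, WT2, KO1 or KO3, Rictor did not without WT2 and Camkk2 did not without KO3. KO and WT values did not overlap for 9 genes higher in KO (21.4%), against 9.41% of all genes, and for 4 lower in KO (9.52%), against 10.5%. The median log2 fold change of the 42 was 0.13, with 26 above 0 and 16 below, and that of all genes tested was 0.02, with 51.4% above 0. Prkaa2 and Prkag3 were too low to be tested. Fold changes here and below are on the log2(normalized count + 1) scale, which understates the change of low genes. The limma p-values set each difference against the spread between these animals, drawn toward the spread of other genes of like level.

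**Figure D1:**
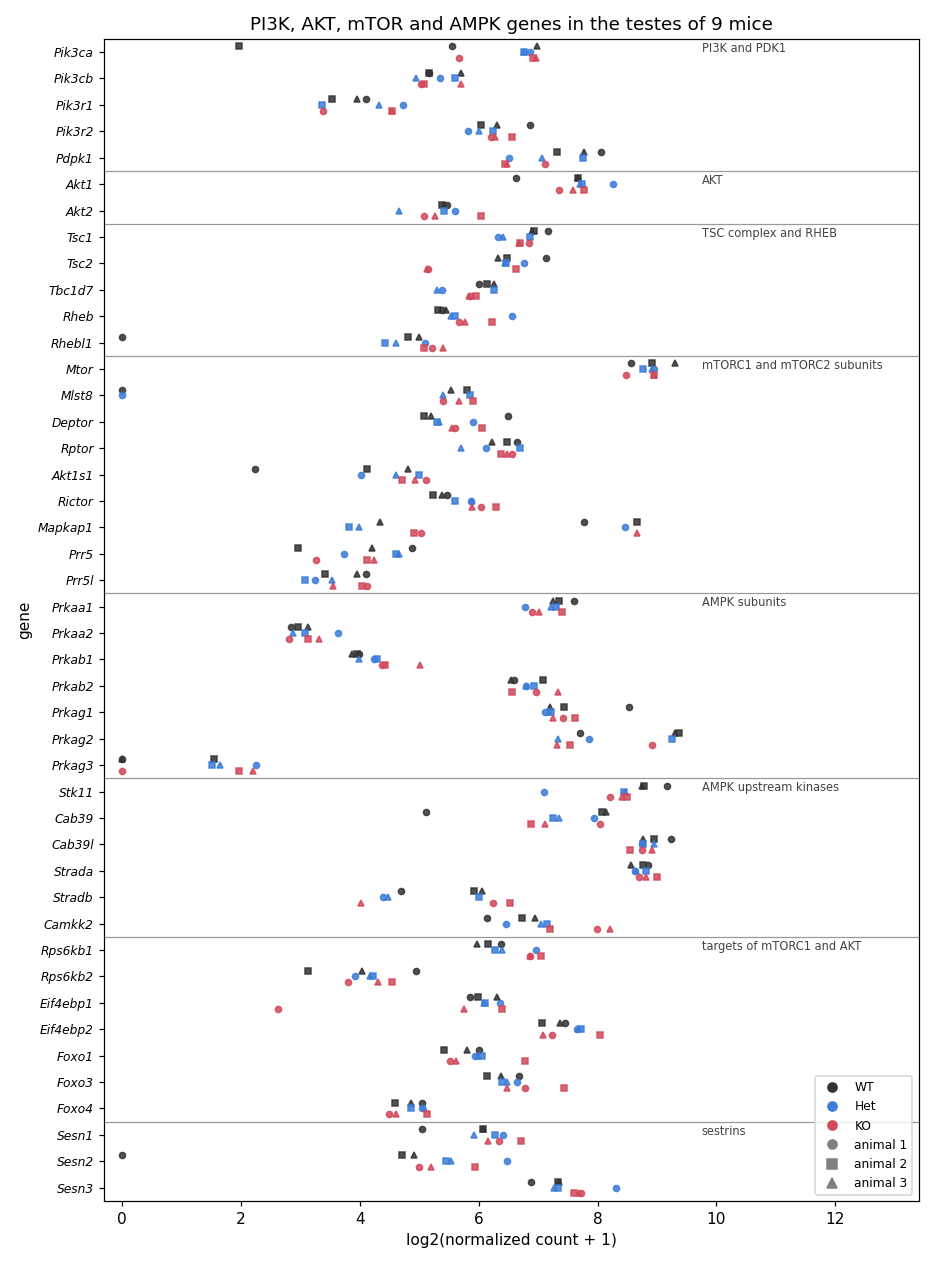
Each point is 1 animal on a log2(normalized count + 1) axis, with 1 row for each of the 44 genes, grouped by complex, black for WT, blue for Het and red for KO. The 3 genotypes overlap for most genes, and the points at 0 are WT1 for Mlst8, Rhebl1 and Sesn2, Het1 for Mlst8, and WT1, WT3 and KO1 for Prkag3.

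**Figure D2:**
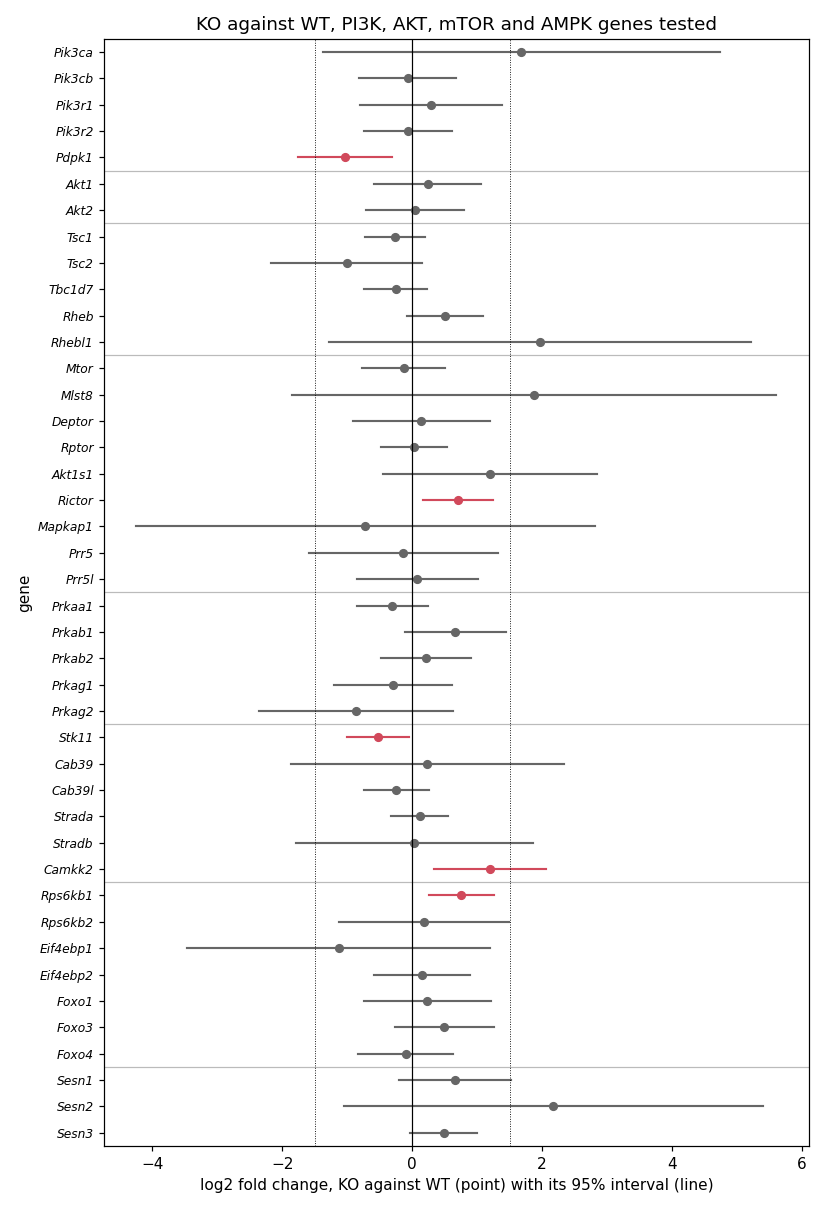
Points are log2 fold changes of KO against WT for the 42 genes tested and lines are their 95% intervals from limma, with dotted lines at 1.5 in each direction. Red marks the 5 genes with an unadjusted p under 0.05 (Pdpk1, Rictor, Stk11, Camkk2 and Rps6kb1), and the widest intervals are those of Mlst8, Mapkap1, Rhebl1, Sesn2 and Pik3ca.

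At the head of the pathway, Pdpk1, which encodes PDK1, the kinase that phosphorylates the activation loop of AKT and S6 kinase, read 265, 158 and 217 normalized counts in WT, 89.8, 215 and 132 in Het and 137, 86.1 and 88.5 in KO animals. All 3 KO animals lay below all 3 WT animals, and the Het animals covered both ranges. The mean was 213 ± 53.5 (SD, n = 3) in WT and 104 ± 29.0 in KO animals. By limma, the log2 fold change was −1.03 (SE 0.30, 95% interval −1.76 to −0.31, adjusted p = 0.610). Pdpk1 (ENSMUSG00000024122) lies on chromosome 17 of GRCm38 from 24073680 to 24150924 on the minus strand.

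The PI3K genes on the list differed less between genotypes. Pik3cb, a catalytic subunit, ranged from 34.7 to 51.2 in WT and from 31.8 to 50.9 in KO animals, and Pik3r2, a regulatory subunit, from 64.6 to 115 and from 73.0 to 92.9. Pik3r1, the other regulatory subunit on the list, was low in every animal, between 9.31 and 25.5. Pik3ca, the other catalytic subunit, read 45.8, 2.89 and 126 in WT, 115, 107 and 108 in Het and 49.8, 120.0 and 123 in KO animals. WT2 was at 3 reads for Pik3ca, at the limit of detection, so that its fitted fold change of 1.68 (SE 1.26) rested on 1 animal near the limit.

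Akt1, the more abundant of the 2 AKT genes by 3′-end counts, read 97.8, 204 and 202 in WT, 307, 211 and 206 in Het and 161, 217 and 190.4 in KO animals. WT1 was the lowest animal, the other WT animals lay within the KO range, and all Het animals lay above all WT animals. KO against WT gave a log2 fold change of 0.24 (SE 0.34, 95% interval −0.58 to 1.06), with a limma adjusted p of 0.776, and it was −0.11 without WT1. Akt2 read 43.3, 40.5 and 41.5 in WT, 47.2, 41.9 and 24.3 in Het and 32.6, 64.8 and 37.5 in KO animals. Its WT animals were close together and 2 of the KO animals lay below them, with KO2 above. Its log2 fold change was 0.04 (SE 0.31, 95% interval −0.72 to 0.80), the limma adjusted p was 0.968, and without KO2 the value was −0.25. Akt1 made up 69.3% to 89.4% of the sum of both genes in the 9 animals.

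The TSC complex, in which TSC2 is the GTPase activator that turns RHEB off, was spread across both directions. Of its genes and those of RHEB, 2 had a positive and 3 a negative log2 fold change in KO against WT, with a median of −0.25. Tsc1, the partner that stabilises TSC2, read 142, 122 and 119 in WT, 79.4, 115 and 83.6 in Het and 114, 103 and 101 in KO animals. Both mutant genotypes lay below all WT animals for Tsc1, by a log2 fold change of −0.26 (SE 0.19) in KO and −0.47 (SE 0.23) in Het. Tbc1d7, the third subunit, read 63.1, 69.5 and 75.3 in WT, 40.6, 75.4 and 38.1 in Het and 56.7, 60.9 and 56.3 in KO animals. The KO animals lay below the WT animals by a small margin, and the Het animals reached both sides.

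Tsc2 read 139, 87.8 and 79.2 in WT, 108, 86.6 and 85.7 in Het and 34.4, 97.7 and 34.0 in KO animals. KO1 and KO3 were the lowest of the 9, and KO2 lay within the WT range. Limma gave a log2 fold change of −1.01 (SE 0.48, 95% interval −2.17 to 0.16, adjusted p = 0.614). Tsc2 overlaps Pkd1 on the opposite strand by 693 bases at its 3′ end. Pkd1 read 17.3, 0 and 18.3 in WT, 0, 30.7 and 10.6 in Het and 49.0, 80.3 and 62.6 in KO animals, with every KO animal above every other animal. The sources do not state whether the counting used strand, so reads from the shared stretch of Tsc2 and Pkd1 cannot be told apart. In all, 9 of the 44 genes overlap another gene with more than 10 normalized counts in any animal.

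Rheb, the GTPase that activates mTORC1, read 40.9, 38.6 and 42.5 in WT, 93.5, 47.5 and 45.5 in Het and 49.8, 73.5 and 53.6 in KO animals. Every Het and KO animal lay above every WT animal. Against WT, the log2 fold change was 0.51 (SE 0.24, 95% interval −0.08 to 1.09) in KO and 0.52 (SE 0.34, 95% interval −0.29 to 1.34) in Het, and neither passed the limma test. Both comparisons use the same WT animals. Rhebl1, a close relative of Rheb, read 0, 27.0 and 30.9 in WT, 33.1, 20.5 and 23.3 in Het and 36.1, 32.9 and 41.1 in KO animals. WT1 had no read of Rhebl1, so its fitted fold change depends on the pseudocount, and the gene overlaps Dhh on the same strand by 3389 bases.

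Mtor, the kinase at the core of both mTOR complexes, read 375, 479 and 631 normalized counts in WT, 490.4, 436 and 482 in Het and 356, 495 and 493 in KO animals. The genotypes overlapped, and the widest spread was among the WT animals. The mean was 495 ± 129 (SD, n = 3) in WT, 469 ± 29.3 in Het and 448 ± 80.1 in KO animals. The log2 fold change of KO against WT was −0.13 (SE 0.26) with a 95% interval from −0.77 to 0.51 and a limma adjusted p of 0.849. Its sign turned when WT3 (0.063) or KO1 (0.029) was left out. Mtor (ENSMUSG00000028991) lies on chromosome 4 from 148448611 to 148557683.

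Rptor, the scaffold that defines mTORC1, read 99.0, 87.8 and 73.4 in WT, 69.0, 102 and 50.8 in Het and 93.6, 82.2 and 88.5 in KO animals, with the KO range inside the WT range and both inside the Het range. Mlst8, a subunit of both complexes, read 0, 55.0 and 45.4 in WT, 0, 56.8 and 41.3 in Het and 41.2 to 59.0 in KO animals. The animals with reads of Mlst8 overlapped in all genotypes, and the absence of reads fell on WT1 and Het1, so its fold change was not read. Akt1s1, which encodes the mTORC1 inhibitor PRAS40, read 3.71, 16.4 and 27.0 in WT, 15.1, 30.7 and 23.3 in Het and 33.5, 25.2 and 29.5 in KO animals. WT1 was at the limit of detection for Akt1s1, and KO2 lay below WT3. Deptor, an inhibitor of both complexes, ranged from 32.8 to 89.1 in WT, with WT1 highest, and from 45.6 to 65.8 in KO animals.

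Rictor, the scaffold that defines mTORC2, the complex that phosphorylates AKT at its tail, read 43.3, 36.7 and 40.6 in WT, 57.6, 47.5 and 58.2 in Het and 64.4, 77.4 and 58.1 in KO animals. Every Het and KO animal lay above every WT animal. The lowest KO animal (58.1) lay just below the highest Het animal (58.2), so KO and Het overlapped. The mean was 40.2 ± 3.35 (SD, n = 3) in WT, 54.4 ± 6.03 in Het and 66.6 ± 9.84 in KO animals. In KO against WT, limma gave a log2 fold change of 0.71 (SE 0.22, 95% interval 0.17 to 1.25, adjusted p = 0.610), and that of Het against WT was 0.43 (SE 0.22, adjusted p = 0.779). Rictor (ENSMUSG00000050310) lies on chromosome 15 from 6708379 to 6800401.

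Mapkap1, which encodes the mTORC2 subunit SIN1, read 217, 402 and 19.3 in WT, 351, 13.0 and 14.8 in Het and 31.8, 29.0 and 407 in KO animals. Each genotype held both high animals, at 217 to 407, and low animals, at 13.0 to 31.8, with none between, so the split did not follow genotype. Mapkap1 is among the 41 of the 44 genes that were counted as loci of a merged transcript assembly. The part of the assignment of reads to these loci in such splits between animals, here and for other genes, was not tested. The remaining mTORC2 subunits, Prr5 and Prr5l, which encode the PROTOR proteins, were low, at 6.75 to 28.5 and 7.45 to 16.3 over the 9 animals.

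AMPK is a trimer of a catalytic alpha, a scaffold beta and an energy-sensing gamma subunit. Of its 7 genes, 5 were tested, and in KO against WT 2 had a positive and 3 a negative log2 fold change with a median of −0.29. Prkaa1, the catalytic alpha 1 subunit, read 194, 163 and 152 in WT, 109, 157 and 148 in Het and 118, 167 and 129 in KO animals. KO2 lay within the WT range and the other KO animals lay below it. Its log2 fold change was −0.31 (SE 0.23, 95% interval −0.85 to 0.24) with a limma adjusted p of 0.649. Prkaa2, the alpha 2 subunit, ranged from 6.01 to 11.3 over all animals and was under the minimum for testing, so Prkaa1 made up 90.6% to 96.9% of the reads of both.

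The beta subunits were led by Prkab2, at 92.7 to 160.0 over the 9 animals and 82.1% to 90.3% of the sum with Prkab1. Prkab1 read 14.9, 14.5 and 13.5 in WT, 18.0, 18.6 and 14.8 in Het and 19.8, 20.3 and 31.3 in KO animals. The KO animals lay above all others for Prkab1, at 21 to 35 reads per animal, and the log2 fold change against WT was 0.67 (SE 0.32, 95% interval −0.11 to 1.45) with a limma adjusted p of 0.615.

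The gamma subunits varied between animals more than between genotypes. Prkag2 read 207, 664 and 632 in WT, 231, 609.9 and 159.8 in Het and 484, 185 and 159 in KO animals. High and low animals occurred in every genotype, and Prkag2 overlaps antisense transcripts on the opposite strand. Prkag1 read 366, 173 and 147 in WT, 138, 147 and 144 in Het and 169, 196 and 152 in KO animals. WT1 was the highest animal for Prkag1 and low for Prkag2, and the share of Prkag1 in the gamma sum over the 9 animals ran from 18.8% to 63.9%. Prkag3, known from skeletal muscle, stayed between 0 and 3.78 normalized counts, and 7 of the 9 animals were at or under the limit of detection.

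**Figure D3:**
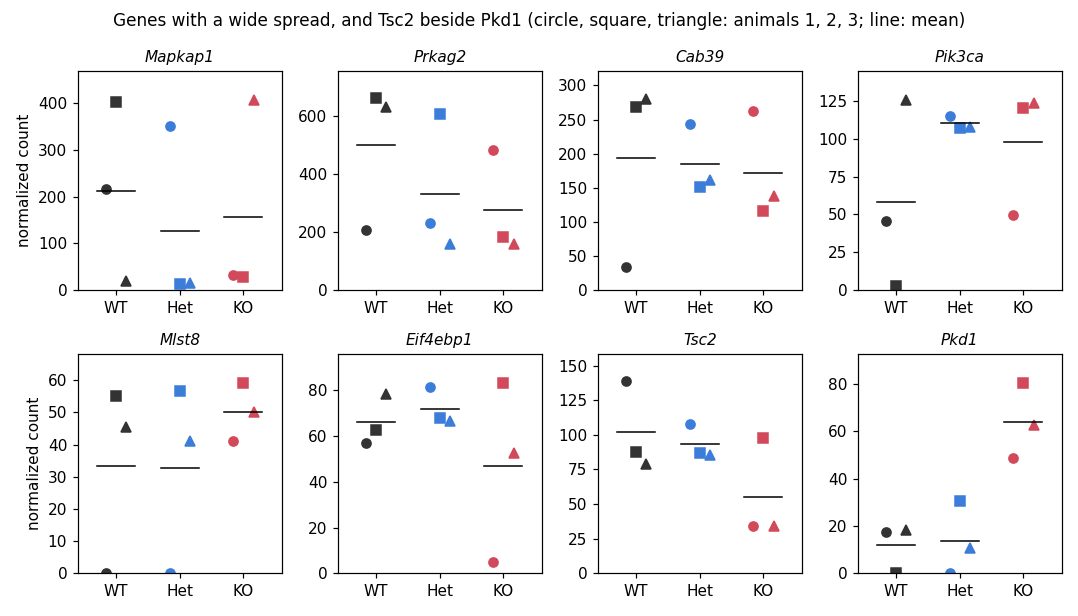
Normalized counts of 7 pathway genes and of Pkd1 in each animal, by genotype, with the mean as a line. Mapkap1 and Prkag2 fall into high and low animals in every genotype, Mlst8 is at 0 in WT1 and Het1, and Tsc2 is low in KO1 and KO3 while Pkd1, on the other strand, is high in all KO animals.

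Among the kinases that activate AMPK, Stk11, which encodes LKB1, read 572, 438 and 428 normalized counts in WT, 136, 348 and 350.3 in Het and 295, 359 and 338 in KO animals. Every Het and KO animal lay below every WT animal, with Het1 the lowest. The mean was 479 ± 80.5 (SD, n = 3) in WT, 278 ± 123 in Het and 331 ± 32.3 in KO animals. Limma gave log2 fold changes of −0.53 in KO (SE 0.20, 95% interval −1.01 to −0.04, adjusted p = 0.610) and −0.89 in Het (SE 0.41, 95% interval −1.89 to 0.11, adjusted p = 0.779). Stk11 (ENSMUSG00000003068) lies on chromosome 10 from 80115803 to 80130682 and is known for a short LKB1 form made in spermatids.

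Camkk2, the calcium-dependent kinase that activates AMPK independently of LKB1, read 69.3, 105 and 122 in WT, 86.9, 141 and 131 in Het and 253, 146 and 295 in KO animals. All KO animals lay above all Het and WT animals, with KO2 just above the highest Het animal. The mean was 98.7 ± 26.7 (SD, n = 3) in WT, 119.6 ± 28.7 in Het and 231 ± 76.7 in KO animals. By limma, the log2 fold change was 1.20 against WT (SE 0.36, 95% interval 0.34 to 2.06, adjusted p = 0.610) and 0.91 against Het (SE 0.33, 95% interval 0.11 to 1.72, adjusted p = 0.973). Both use the same KO animals. Camkk2 (ENSMUSG00000029471) lies on chromosome 5 from 122731170 to 122779409 on the minus strand.

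Of the partners of LKB1, Strada, the pseudokinase that activates LKB1, ranged from 378 to 458 in WT and from 415 to 512 in KO animals, and Cab39l, one of the 2 scaffold genes of the trio, from 434 to 599 and from 371 to 484. Cab39, the other scaffold gene, read 33.4, 269 and 280.0 in WT, 244, 151 and 162 in Het and 262, 116 and 138 in KO animals, with WT1 far below the rest. Stradb, the second pseudokinase, ran from 15.2 to 90.9 in the KO animals alone and overlapped in all genotypes.

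Summed markers of cell types are given beside these values, and no test was run on the sums. The 4 elongating spermatid markers (Tnp1, Tnp2, Prm1 and Prm2) summed to 233289 to 249362 normalized counts in WT, 179063 to 214894 in Het and 123388 to 199672 in KO animals. The 5 round spermatid markers summed to 4031 to 5437, 3800.0 to 4319.8 and 2702 to 3563, and the 5 spermatocyte markers to 4395 to 5218, 4199.7 to 6849 and 5953 to 6685. KO animals thus lay below WT for both spermatid lists and above WT for the spermatocyte list, with none of these markers at 0 in all animals. The part of these markers in the values of Stk11, Camkk2, Pdpk1, Rictor and Rps6kb1 was not tested. The 6 Sertoli cell markers summed to 2485 to 3846 in WT, 2388 to 3260.1 in Het and 2254 to 5022 in KO animals, with KO2 the highest of the 9. The 5 Leydig cell and 5 spermatogonia markers overlapped between genotypes, at 1343 to 3402 and 224 to 291 over the 9 animals, as did those of macrophages, 132 to 279.8, and erythrocytes, 853 to 1331. The epididymis list stayed at 0 to 8.69, with Lcn5, Lcn8 and Adam7 at 0 in all animals.

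**Figure D4:**
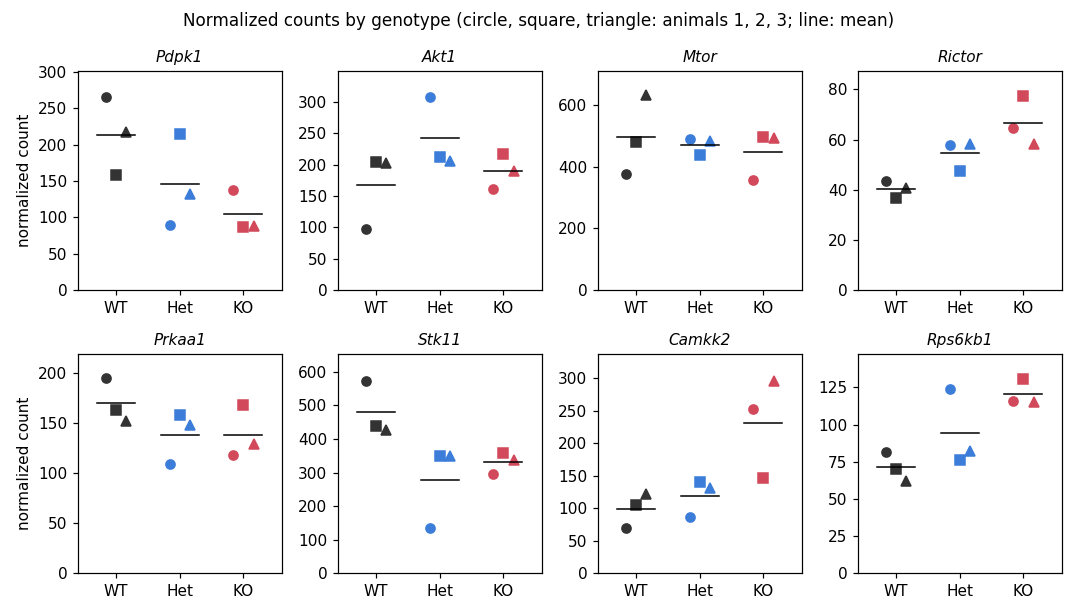
Normalized counts of 8 genes in each animal by genotype, with the mean as a line and each axis starting at 0. Camkk2 of all KO animals lies above the other animals, Rictor, Rps6kb1 and Stk11 separate KO from WT, and Mtor, Akt1 and Prkaa1 overlap.

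Of the targets, Rps6kb1 encodes the S6 kinase that mTORC1 phosphorylates to raise protein synthesis. In KO against WT it had the smallest limma p of the 42 listed genes tested. It read 81.7, 70.4 and 61.8 normalized counts in WT, 124, 76.4 and 82.5 in Het and 116, 131 and 115 in KO animals. All KO animals lay above all WT animals, and Het1 lay within the KO range. The mean was 71.3 ± 9.99 (SD, n = 3) in WT and 121 ± 8.66 in KO animals, and the log2 fold change by limma was 0.76 (SE 0.21, 95% interval 0.26 to 1.26, adjusted p = 0.610). Rps6kb1 (ENSMUSG00000020516) lies on chromosome 11 from 86498871 to 86544805 on the minus strand, and its 3′ end overlaps Rnft1 on the opposite strand by 155 bases. Rnft1 read 96.6, 123 and 134 in WT, 226, 130.4 and 121 in Het and 150.3, 115 and 154 in KO animals. The KO and WT ranges of Rnft1 overlapped, and Het1 was the highest animal for it, as it was the highest Het animal for Rps6kb1. Reads from the shared stretch of these 2 genes cannot be told apart either. Rps6kb2, the second S6 kinase gene, stayed at 7.72 to 29.7 over the 9 animals and 9.88% to 26.7% of the sum of both.

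Eif4ebp1 and Eif4ebp2 encode repressors of cap-dependent translation that mTORC1 switches off. Eif4ebp1 read 57.0, 62.7 and 78.2 in WT, 81.3, 68.0 and 66.7 in Het and 5.15, 83.2 and 52.7 in KO animals. KO1 was the only low animal for Eif4ebp1, which gave its log2 fold change of −1.13 an SE of 0.96. Eif4ebp2 read 173, 133 and 163 in WT, 201, 210.5 and 202 in Het and 149, 261 and 135 in KO animals. The Het animals lay above the WT animals for Eif4ebp2, and the KO animals lay on both sides.

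The FOXO factors, which AKT keeps out of the nucleus, were led by Foxo3, at 47.1% to 62.3% of the summed counts of the 3 genes. Foxo3 read 102, 69.5 and 82.1 in WT, 99.2, 82.9 and 87.8 in Het and 109, 171 and 87.6 in KO animals, and Foxo1 read 63.1, 41.5 and 55.0, 60.5, 65.2 and 62.4, and 44.7, 109 and 48.3 in the same order. KO2 was the highest animal for both genes, and it was also the highest for the Sertoli cell markers and the lowest for the elongating spermatid markers, whose part in these values was not tested. Foxo4 stayed between 21.5 and 33.9 in all animals.

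The sestrins, which restrain mTORC1 when amino acids or energy run low, all had positive log2 fold changes in KO against WT, with a median of 0.67, and none passed the test. Sesn1 read 32.2, 66.6 and 66.6 in WT, 84.1, 76.4 and 59.3 in Het and 79.9, 104 and 70.6 in KO animals. Sesn3 read 116, 160.1 and 161 in WT, 317, 160.2 and 152 in Het and 210.4, 193 and 205 in KO animals. For both genes every KO animal lay above every WT animal, with WT1 the lowest of the 9. Sesn3 had a log2 fold change of 0.49 (SE 0.21) and Sesn1 one of 0.67 (SE 0.36, 95% interval −0.20 to 1.53), with limma adjusted p-values of 0.610 and 0.625. Sesn2 read 0, 25.1 and 29.0 in WT, 87.9, 42.8 and 45.5 in Het and 30.9, 60.0 and 35.7 in KO animals. WT1 had no read of Sesn2, and the lowest KO animal lay close to the highest WT animal.

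Het and WT animals were compared to ask whether the loss of 1 allele was enough to alter these genes. Limma called 0 of the 42 genes tested, as it called 0 of 14216 genes overall (0%), and edgeR and DESeq2 called 0 of the 42 as well. At an unadjusted p under 0.05, 0 of the 42 were higher, against 1.46% of all genes, and 0 were lower, against 1.89%. The median log2 fold change was 0.08, with 22 above 0 and 20 below, against 0.01 for all genes. The smallest p of the list was that of Stk11, given above. Beside it, Eif4ebp2 had a log2 fold change of 0.39 (SE 0.19) and Sesn2 one of 2.62 (SE 1.34). WT1 had no read of Sesn2, and without it Sesn2 was under an unadjusted p of 0.05, as was Eif4ebp2.

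KO and Het animals were compared to set the loss of both alleles against that of 1. Limma called 0 of the 42 genes, against 8 of 14343 genes overall (0.0558%), and edgeR and DESeq2 also called 0 of the 42. At an unadjusted p under 0.05, 1 of the 42 was higher in KO (2.38%), against 1.74% of all genes, and 0 were lower, against 1.82%. The 1 gene was Camkk2. The median log2 fold change was 0.13, with 26 above 0 and 16 below, and that of all genes was −0.0027. The 3 comparisons share animals and are not independent of each other.

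Of the list, 9 of 42 genes (21.4%) spread at least 4-fold between animals of a single genotype on the normalized count + 1 scale, against 27.4% of 14865 genes. They were Mapkap1, Pik3ca, Sesn2, Akt1s1, Eif4ebp1, Stradb, Cab39, Rhebl1 and Mlst8. The variance between animals was above that of counting alone for 34 of 42 genes in WT, 30 in Het and 34 in KO animals.

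A further 80 genes of the same pathways were examined, of which 79 were in the table and 70 were tested. In KO against WT limma called 0 of the 70, against 0.0352% of all genes. At an unadjusted p under 0.05, 4 of the 70 were higher (5.71%), against 3.04% of all genes, and 4 were lower (5.71%), against 5.03%. The smallest p was that of Larp1, an mTORC1 target that binds the messages of ribosomal proteins, which read 182, 195 and 242 in WT, 81.3, 197 and 27.5 in Het and 113, 76.4 and 81.3 in KO animals. Its log2 fold change by limma was −1.20 (SE 0.24, adjusted p = 0.478). Lamtor1 and Lamtor3, which anchor mTORC1 to the lysosome, ranged from 130.0 to 293 and from 19.8 to 45.3 normalized counts in WT and from 475 to 659 and from 57.2 to 77.4 in KO animals, with an adjusted p of 0.610 by limma. Fnip1, a folliculin partner, had a log2 fold change of 0.64 (SE 0.18) and Phlpp1, a phosphatase of AKT, one of −0.82 (SE 0.23), both with the same adjusted p. These 5 genes were named for their small p, and the ranges of KO and WT were separate for each. Among the 70, KO and WT values did not overlap for 6 genes higher in KO (8.57%), against 9.41% of all genes. They did not overlap for 8 genes lower in KO (11.4%), against 10.5% of all genes.

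Maf1, which encodes a repressor of RNA polymerase III that mTORC1 switches off, was the only gene of the further list that limma called in any of the 3 comparisons. It read 12.4, 228 and 190.2 in WT, 157, 229 and 158 in Het and 7.73, 6.77 and 8.04 in KO animals. The KO animals were uniformly low, WT1 lay close to them, and the other WT and all Het animals were high. It passed the filter on low values through the Het animals alone, since every KO animal was under 10. In KO against Het it fell by 4.40 on the log2 scale (SE 0.24, adjusted p = 0.0170 by limma). With no filter the adjusted p by limma was 0.0228. Without KO1, KO2 or KO3 the log2 fold change was −4.33 to −4.44 and the limma adjusted p was 0.0632 to 0.138. Without any 1 Het animal Maf1 no longer passed the filter and was not tested. Set against WT, the KO animals had a log2 fold change of −3.30 (SE 1.09, adjusted p = 0.610 by limma).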

How the data were processed

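QuantSeq 3′-end libraries of testis RNA from 9 mice were used, grouped by genotype from the labels. Per the labels, the authors processed the reads with Trim Galore 0.4.5, HISAT2 2.1 (GRCm38), StringTie 1.3.3 and DESeq2. The deposited values are a signal, gene counts scaled by 1 size factor per animal (normalized counts), in which whole reads could be recovered for 100% of values above 0. Genes that reached 10 in 3 or more of the animals compared were tested with limma 3.58.1 (eBayes with a trend, R 4.3.3) on log2(value + 1), with Benjamini-Hochberg adjustment over all genes tested. A gene was called where its adjusted p was under 0.05 and its log2 fold change, up or down, exceeded 1.5. Only the 2 genotypes compared entered each fit. On the recovered reads, edgeR 4.0.16 called 5 genes and DESeq2 1.42.0 called 101 in KO against WT. The scripts were tested on simulated data.

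Other alternatives were the filter, pseudocounts of 0.5 and 5, TMM factors, all 9 animals in 1 fit, a block for the replicate number, leaving out each replicate, and no limit on the fold change. Leaving out WT1 and KO2 together and the counts of genes without overlap were added after seeing the data. The rule for the 44 genes uses names only, but it and the other lists were drawn up with earlier results of these data known. All 44 genes are accounted for, with a fold change and test for Mtor, Prkaa1, Akt1, Akt2 and every gene with an unadjusted p under 0.05, and fold changes shown for other genes were picked after their values were seen. Of the further pathway genes, those called or the 5 with the smallest p are named. Of 38674 genes, 38509 matched the annotation (GENCODE M21). Eif4ebp3 was not analysed here. Python 3.11.15 was used with pandas 2.3.3, numpy 2.4.6 and matplotlib 3.10.9.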

Additional observations from a re-analysis of the deposited data

How the results depend on the processing

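The count of 0 pathway genes called held in each of the 3 comparisons under every alternative, edgeR and DESeq2 included. The 5 genes with an unadjusted p under 0.05 in KO against WT were the same with edgeR, DESeq2, no filter, both pseudocounts and TMM factors. The count was 3 to 6 when a replicate was left out, with 3 without WT2 or KO3, and without WT1 and KO2 it was 5, with Tsc2 in place of Pdpk1. The share of all genes under that p was 8.07% in the reported fit, 4.42% to 8.88% with a replicate left out and 9.03% without WT1 and KO2. In Het against WT the count was 1 with all 9 animals in 1 fit, against 5.67% of all genes. With a replicate left out it was 0 to 3, against 1.31% to 5.41% of all genes. In KO against Het it was 0 to 3 with a replicate left out, against 2.23% to 5.17%. The genes without overlap that were higher in KO numbered 5 of 29 with a filter at a mean of 50 (17.2%, against 8.02% of all genes). They numbered 9 to 11 with a replicate left out (21.4% to 26.2%, against 12.8% to 15.2% of all genes). Without WT1 and KO2 they numbered 13 (31.7%, against 20.9%). Those that were lower numbered 4 to 8 with a replicate left out (9.52% to 19.0%, against 14.7% to 17.5% of all genes). The count of 8 was without KO2 (19.0%, against 14.7%). Without WT1 and KO2 those that were lower numbered 11 (26.8%, against 23.9%), so the share of all genes rose as well. DESeq2 called 1 further pathway gene, Maf1, in KO against WT. For that comparison, log2 fold changes ran from −0.31 to 0.063 for Mtor, from −0.11 to 0.42 for Akt1 and from −0.25 to 0.24 for Akt2 with a replicate left out; the sign turned without WT3 or KO1 (0.063 and 0.029) for Mtor, without WT1 for Akt1 and without KO2 for Akt2. Without both WT1 and KO2 it was −0.21 for Akt1 and −0.22 for Akt2. The cause of these shifts was not tested.

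The labels do not say what the replicate numbers stand for. Deviations of same-numbered animals correlated between −0.14 and 0.188. Differently numbered animals were not compared, so these values cannot decide whether the numbers pair the animals. With the replicate number as a block, 3 pathway genes had an unadjusted p under 0.05 in KO against WT, against 5.58% of all genes. In KO against Het 0 did, against 2.81% of all genes. Maf1 was not called in KO against Het with that block (limma adjusted p = 0.489), and no pathway gene's call changed. Maf1 in KO against Het stayed called with edgeR (adjusted p = 0.0282) and DESeq2 (6.01e-22). It was not called with a filter at a mean of 50 (0.0545) or with all 9 animals in 1 fit, where its log2 fold change was −4.40 as in the reported fit, nor without KO1, KO2 or KO3 (0.0632 to 0.138), where it was −4.33 to −4.44.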
